A study of Mus musculus with 6 samples.

Results

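The transcriptomes of 2 induced states of one mouse progenitor line were set directly against each other: CAF-1 OFF, in which the histone chaperone CAF-1 was depleted, and HOXA9 OFF, in which the immortalizing transcription factor HOXA9 was switched off. The comparison used 4 of the 6 RNA-seq libraries of the series, namely 2 titled CAF-1 OFF and 2 titled HOXA9 OFF, each taken 24 h after induction, and the 2 control libraries took no part in its test. All libraries came from C57Bl/6 iGMPs (granulocyte-macrophage progenitors, GMPs, from bone marrow immortalized by a fusion of HOXA9 with the hormone-binding part of a mutated estrogen receptor, and carrying a Lysozyme-GFP reporter). CAF-1 OFF cells were induced with 500 µM IPTG to express a hairpin against Chaf1b and were kept in 150 ng/ml estradiol, so that HOXA9 stayed active, while in HOXA9 OFF cells estradiol was washed out. Control cells received IPTG and estradiol. The cells are clonal lines grown in stem cell factor, and the labels name neither the hairpin nor the clone behind the HOXA9 OFF libraries nor whether they received IPTG, so the effects of hairpin, IPTG, clone and estradiol on this comparison cannot be told apart from the state. Libraries held 19063382 and 19299768 gene-assigned reads in CAF-1 OFF against 21733706 and 16944121 in HOXA9 OFF. Nothing in the labels says that the 2 libraries of a state are separate cultures, and p-values therefore measure only the spread between these libraries, which may be technical. In bulk samples, fewer cells of a type and less RNA per cell cannot be told apart.

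CAF-1 is a complex that deposits histones H3 and H4 on newly copied DNA, and CHAF1B is one of its subunits. The iGMPs keep the potential to form granulocytes and macrophages. HOXA9 is a homeobox factor that keeps progenitors in self-renewal, and when the estrogen receptor fusion loses its ligand the cells proceed towards neutrophils. Along that path progenitor genes such as Flt3, Kit and Cd34 go down, primary granule proteins such as myeloperoxidase are made first, and secondary granule proteins such as lactoferrin and the receptors and lysosomal enzymes of phagocytes follow.

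The targeted genes were examined first. Chaf1b stood at 17.7 and 12.1 CPM (read counts scaled by TMM-adjusted library size) in the CAF-1 OFF libraries and at 63.9 and 60.2 CPM in the HOXA9 OFF libraries, against 89.7 and 105 CPM in the control. It was 4.17-fold lower in the CAF-1 OFF libraries (log2 fold change -2.06 ± 0.21 SE, adjusted p = 0.00248, edgeR quasi-likelihood test), and HOXA9 OFF lay between CAF-1 OFF and the control. Chaf1a, which encodes the large CAF-1 subunit, read 101 and 102 CPM in CAF-1 OFF against 114 and 98.3 CPM in HOXA9 OFF, a log2 difference of -0.07 ± 0.12 that did not pass the test (adjusted p = 0.727). Hoxa9 stood at 203 and 269 CPM in CAF-1 OFF against 352 and 355 CPM in HOXA9 OFF. The log2 difference of -0.58 ± 0.16 (adjusted p = 0.0425) fell just short of the 1.5-fold minimum, so that the gene was not called here and was called under some alternatives. Since the fusion is switched off at the protein level this gene gives no check of the HOXA9 OFF label.

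**Figure D1:**
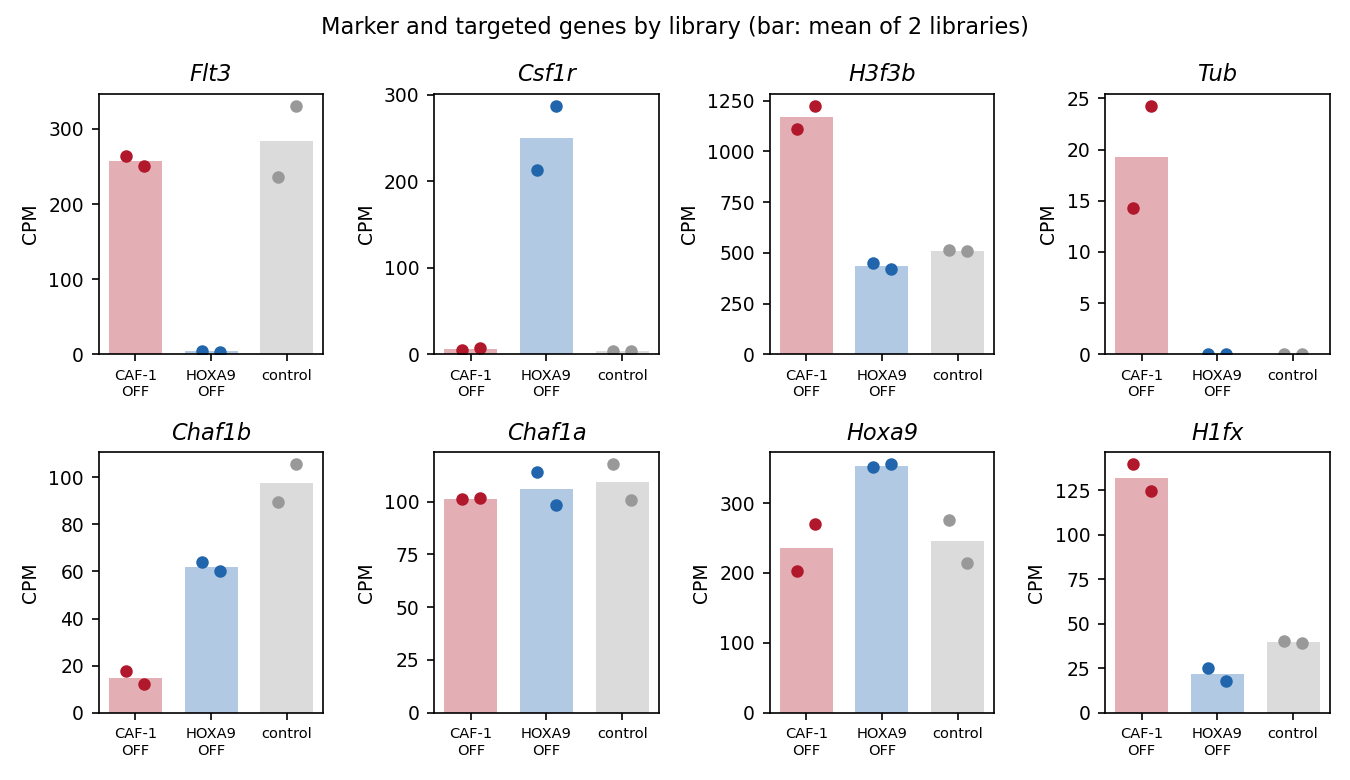
CPM (linear axes from 0) of 8 genes in each library, with points for libraries and bars for the mean of the 2 libraries of CAF-1 OFF, HOXA9 OFF and the control. Flt3 is near 0 only in HOXA9 OFF, Csf1r is high only in HOXA9 OFF, Tub has more than 1 read only in CAF-1 OFF, and H3f3b and H1fx are highest in CAF-1 OFF.

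Flt3, the receptor for FLT3 ligand on early progenitors, gave 5108 and 4980 reads in the CAF-1 OFF libraries against 104 and 57 in HOXA9 OFF, or 258 ± 9.32 against 4.17 ± 1.11 CPM (mean ± SD, n = 2 libraries). The difference was 61-fold (log2 fold change 5.93 ± 0.21, adjusted p = 0.000349), and the control libraries, at 237 and 331 CPM, stood with CAF-1 OFF. Csf1r, the receptor for the macrophage growth factor M-CSF, was the mirror image. Its counts were 92 and 141 in CAF-1 OFF against 4457 and 4824 in HOXA9 OFF, 42-fold higher in HOXA9 OFF (adjusted p = 0.000477), with the control at 103 and 73. H3f3b, 1 of 2 genes for the replication-independent histone H3.3, reached 1112 and 1224 CPM in CAF-1 OFF against 449.8 and 419.9 CPM in HOXA9 OFF, a 2.69-fold difference (adjusted p = 0.00141). Here the control, at 512 and 510.3 CPM, stood with HOXA9 OFF. Tub, which encodes a transcription regulator best known from neurons, had 276 and 481 reads in CAF-1 OFF against 0 and 1 in HOXA9 OFF, with 1 and 0 in the control. Over pooled reads the ratio was 731 (95% exact interval 131 to 28900.0, counting error only, adjusted p = 0.00109). These 4 genes had been proposed as markers with earlier results of these data in view, so their values describe the states and are no independent evidence.

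Of 12251 genes that passed the filter on low counts, 2596 (21.2%) differed by at least 1.5-fold at a false discovery rate (FDR) under 0.05. Of all genes tested, 1145 (9.35%) were called higher in CAF-1 OFF and 1451 (11.8%) higher in HOXA9 OFF. The share of calls higher in CAF-1 OFF was 44.1% (95% Wilson interval 42.2 to 46.0%, counting error only). With scaling by library size alone that share was 51.8%, so the excess of HOXA9 OFF genes depends on the scaling. At 4-fold or more, 293 and 315 genes were called higher in CAF-1 OFF and HOXA9 OFF, and at 16-fold or more 85 and 82. The median called gene differed by 2.14-fold when higher in CAF-1 OFF and by 2.19-fold when higher in HOXA9 OFF, whereas the median log2 difference over all genes tested was 0.02. Libraries of one state correlated at 0.983 and 0.984 over log2 CPM of the genes, which are not independent replicates, and libraries of different states at 0.924 to 0.935.

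**Figure D2:**
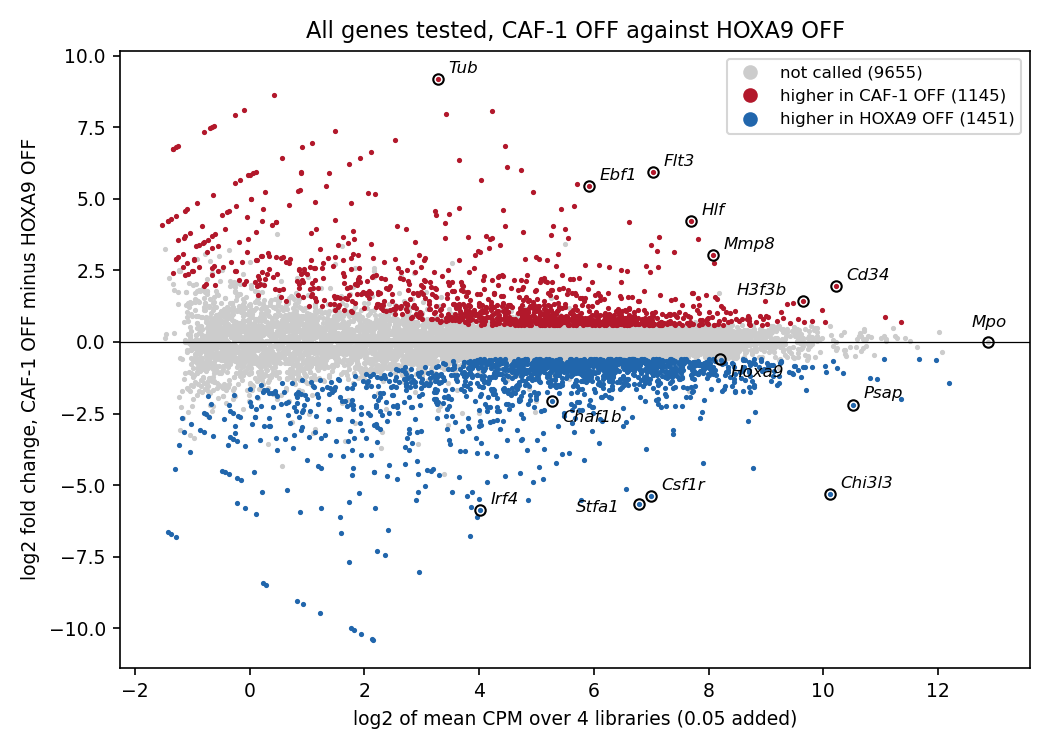
Log2 fold change (CAF-1 OFF minus HOXA9 OFF) against the log2 mean CPM over 4 libraries for the 12251 genes tested, with the 1145 genes called higher in CAF-1 OFF in red, the 1451 called higher in HOXA9 OFF in blue and circled genes named. Mpo lies at 0 at the right edge, whereas Flt3, Ebf1 and Hlf rise above it and Chi3l3, Csf1r and Irf4 lie below.

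For the called genes, the 2 control libraries lay nearer to CAF-1 OFF than to HOXA9 OFF in 2342 of 2596 cases (90.2%), on mean log2 CPM with all 6 libraries scaled together. The count was 1368 of 1451 among genes higher in HOXA9 OFF and 974 of 1145 among genes higher in CAF-1 OFF. In 1068 of the 2596 cases the control lay outside both states. Among the 9655 genes not called it was nearer to CAF-1 OFF in 6576 (68.1%). Of the genes higher in CAF-1 OFF, 171 had the control nearer to HOXA9 OFF, as for H3f3b and Tub. No test was made of these counts, which place the control beside the 2 states.

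The largest difference towards CAF-1 OFF among genes with a mean of at least 10 CPM was that of Gpr12, an orphan G protein-coupled receptor, with 671 and 793 reads in CAF-1 OFF against 4 and 1 in HOXA9 OFF (fitted as 270.2-fold). The next were 8430408G22Rik, with 469 and 361 against 3 and 0 reads, and the myosin genes Myh7b (114-fold) and Myo16 (82.1-fold). Trib2, a pseudokinase gene, read 58.5 and 29.2 CPM in CAF-1 OFF against 0.0477 and 1.31 CPM in HOXA9 OFF, and its libraries spread widely within both states. Paqr5, a progestin receptor family gene, and Aebp1, a carboxypeptidase-like gene, differed by 50.2-fold and 46.1-fold. All of these genes were also read in the control, at 22.1 and 20.1 CPM for Gpr12 and 71.2 and 141 CPM for Aebp1. Tgm3, a transglutaminase gene, behaved otherwise, with 96.3 and 97.3 CPM in CAF-1 OFF against 2.48 and 4.82 CPM in HOXA9 OFF, with only 10.1 and 4.84 CPM in the control.

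In the other direction, the largest differences at the same expression level were those of 2 stefin A genes, Gm5483 (109-fold) and BC100530 (69.7-fold), which encode inhibitors of cysteine proteases. BC100530 had 16 and 1 reads in CAF-1 OFF against 899 and 313 in HOXA9 OFF, so its fold and rank are uncertain. Irf4, a transcription factor of activated lymphoid and myeloid cells, followed with 10 and 11 reads in CAF-1 OFF against 605 and 586 in HOXA9 OFF (58.7-fold). Emr4, an adhesion receptor gene of macrophages, was 44.9-fold higher and Dennd2a, a gene for a Rab exchange factor, 42-fold higher in HOXA9 OFF. Chi3l3, which encodes the chitinase-like protein Ym1, was the most abundant of this group, at 46.3 and 63.3 CPM in CAF-1 OFF against 2803 and 1539.6 CPM in HOXA9 OFF. Its raw counts in HOXA9 OFF were 58768 and 25888, so the libraries of that state differed from each other while remaining far above CAF-1 OFF.

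Most of the called progenitor and stem cell genes were higher in CAF-1 OFF. Of 31 members tested, 17 were called higher in CAF-1 OFF (54.8%, against 9.35% of all genes), 4 higher in HOXA9 OFF (12.9%, near the 11.8% of all genes) and 10 did not pass, with a median log2 difference of 0.79. Hlf, a leucine zipper factor of stem cells, read 431 and 357 CPM in CAF-1 OFF against 19.5 and 22.8 CPM in HOXA9 OFF (18.7-fold, adjusted p = 0.000388). Angpt1, the ligand of the TIE2 receptor, read 207 and 165 CPM against 11.7 and 8.8 CPM (18.1-fold). Both libraries of CAF-1 OFF exceeded both libraries of HOXA9 OFF by more than an order of magnitude for these genes. Sox4 was 7.21-fold higher, and Cd34, a sialomucin of progenitors, fell from 2119.5 and 1653 CPM in CAF-1 OFF to 478 and 497 CPM in HOXA9 OFF. Kit, the receptor for the stem cell factor in the medium, stood at 674 and 807 against 296 and 257 CPM (2.67-fold). The progenitor factors Gfi1 (2.11-fold), Myc (1.75-fold), Tal1 (1.77-fold) and Myb (1.73-fold) were higher by smaller amounts. In the other direction, Runx1, a transcription factor of blood stem cells, read 38.1 and 47.4 CPM in CAF-1 OFF against 109 and 113 CPM in HOXA9 OFF (2.6-fold, adjusted p = 0.00259). Cd93 and Fli1 were also called higher in HOXA9 OFF. The call of Cd93 was lost without CAF-1 OFF replicate 1, CAF-1 OFF replicate 2 or HOXA9 OFF replicate 2 (adjusted p = 0.136, 0.0632 and 0.1). That of Fli1 was lost without HOXA9 OFF replicate 1 (adjusted p = 0.0535) and fell short of 1.5-fold without CAF-1 OFF replicate 2 (log2 difference -0.56).

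Lymphoid genes were called mainly towards CAF-1 OFF. Of 15 lymphoid genes tested, 9 were called higher in CAF-1 OFF (60%, against 9.35% of all genes), 1 higher in HOXA9 OFF (6.67% against 11.8%) and 5 did not pass, with a median log2 difference of 2.87. The 9 were 5 at a mean of at least 5 CPM, and the 1 was 3 and 2 without HOXA9 OFF replicates 1 and 2, 4 with no filter, 3 by the DESeq2 Wald test, and 2 with DESeq2 size factors, all 6 libraries, a mean of at least 5 CPM or the exact test of edgeR. Ebf1, a B-lineage transcription factor, gave 2327 and 2273 reads in CAF-1 OFF against 52 and 50 in HOXA9 OFF, 43.2-fold higher in CAF-1 OFF (adjusted p = 0.000349). Rag2, a subunit of the V(D)J recombinase, gave 1152 and 874 against 13 and 17 reads, and its partner Rag1 gave 65 and 78 against 1 and 0. Dntt, the terminal transferase gene, had 84 and 78 against 2 and 3 reads. The surrogate light chain gene Igll1 read 283 and 180.3 CPM in CAF-1 OFF against 11.3 and 33.4 CPM in HOXA9 OFF. Thy1 read 94.1 and 25.4 against 1.86 and 1.25 CPM, with CAF-1 OFF libraries that differed from each other several-fold.

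For all 9 of these lymphoid genes the control lay nearer to CAF-1 OFF, against 85.1% of all genes called higher in CAF-1 OFF. Ebf1 read 93.7 and 98.9 CPM in the control. Markers of lymphocytes were read unevenly. Thy1, a T-cell marker, was read as given above, whereas no read fell on Cd3e, Cd3g, Cd8a, Cd2, Cd7, Bcl11b, Ly6d or Ncr1 in any of the 4 libraries (a limit of 3 counts per library), and Pax5 had 0 and 2 reads in CAF-1 OFF against 0 and 1 in HOXA9 OFF. Summed over the list, lymphoid genes made up 677 and 501 CPM in CAF-1 OFF against 176 and 207 CPM in HOXA9 OFF. Blnk, a B-cell adaptor also found in macrophages, was the exception, 4.82-fold higher in HOXA9 OFF, with adjusted p = 0.0939 and 0.0876 without CAF-1 OFF replicates 1 and 2.

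Growth factor and cytokine receptor genes were called in both directions. Of 29 tested, 4 were called higher in CAF-1 OFF (13.8%, against 9.35% of all genes, Flt3, Kit and Il10rb among them), 14 higher in HOXA9 OFF (48.3% against 11.8%) and 11 did not pass. Besides Csf1r, the HOXA9 OFF side held the receptor genes for G-CSF and GM-CSF. Csf3r, the G-CSF receptor gene, read 44.8 and 45.3 CPM in CAF-1 OFF against 107 and 92.7 CPM in HOXA9 OFF (2.21-fold), and the GM-CSF receptor genes Csf2ra and Csf2rb were 2.72-fold and 1.66-fold higher. Il6ra, which encodes the IL-6 receptor chain, was 4.8-fold higher in HOXA9 OFF, and Il1rn, the gene for the IL-1 receptor antagonist, 13.8-fold higher.

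Among 45 myeloid transcription factor genes, 22 were called higher in HOXA9 OFF (48.9%, against 11.8% of all genes), 4 higher in CAF-1 OFF (8.89% against 9.35%) and 19 did not pass (median log2 difference -0.99). Besides Irf4, the strongest were the Krüppel-like factor genes Klf2, at 0.673 and 0.353 against 12.1 and 8.27 CPM, and Klf4, at 0.88 and 0.706 against 8.16 and 20.1 CPM. Id2, an inhibitor of E proteins, was 7.74-fold and Rara, the retinoic acid receptor gene of granulocytic maturation, 4.61-fold higher in HOXA9 OFF. Sfpi1, the gene for PU.1, read 219 and 184 CPM in CAF-1 OFF against 553 and 431 CPM in HOXA9 OFF (2.44-fold), and Irf8, which steers progenitors towards monocytes, read 32.8 and 85.7 against 176 and 172 CPM. Irf8 differed widely between the CAF-1 OFF libraries. Gfi1, Egr1, Maff and Cebpg were the 4 factors higher in CAF-1 OFF, with Egr1 at 3.14-fold (adjusted p = 0.0521 without CAF-1 OFF replicate 1). Without that library 2 factors were called higher in CAF-1 OFF. Maff gave adjusted p = 0.124 and 0.0986 without CAF-1 OFF replicate 1 and HOXA9 OFF replicate 2, and Cebpg 0.0772 without HOXA9 OFF replicate 1. The C/EBP genes Cebpa, Cebpb and Cebpe did not pass the test (Cebpb adjusted p = 0.0865, and called higher in HOXA9 OFF without CAF-1 OFF replicate 1, adjusted p = 0.0229), Cebpe at 211 and 196 CPM in CAF-1 OFF against 380.4 and 243 CPM in HOXA9 OFF (adjusted p = 0.0842, and 0.00363, called, without HOXA9 OFF replicate 2). Cebpe was also called by the DESeq2 Wald test, the exact test of edgeR and with no filter.

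**Figure D3:**
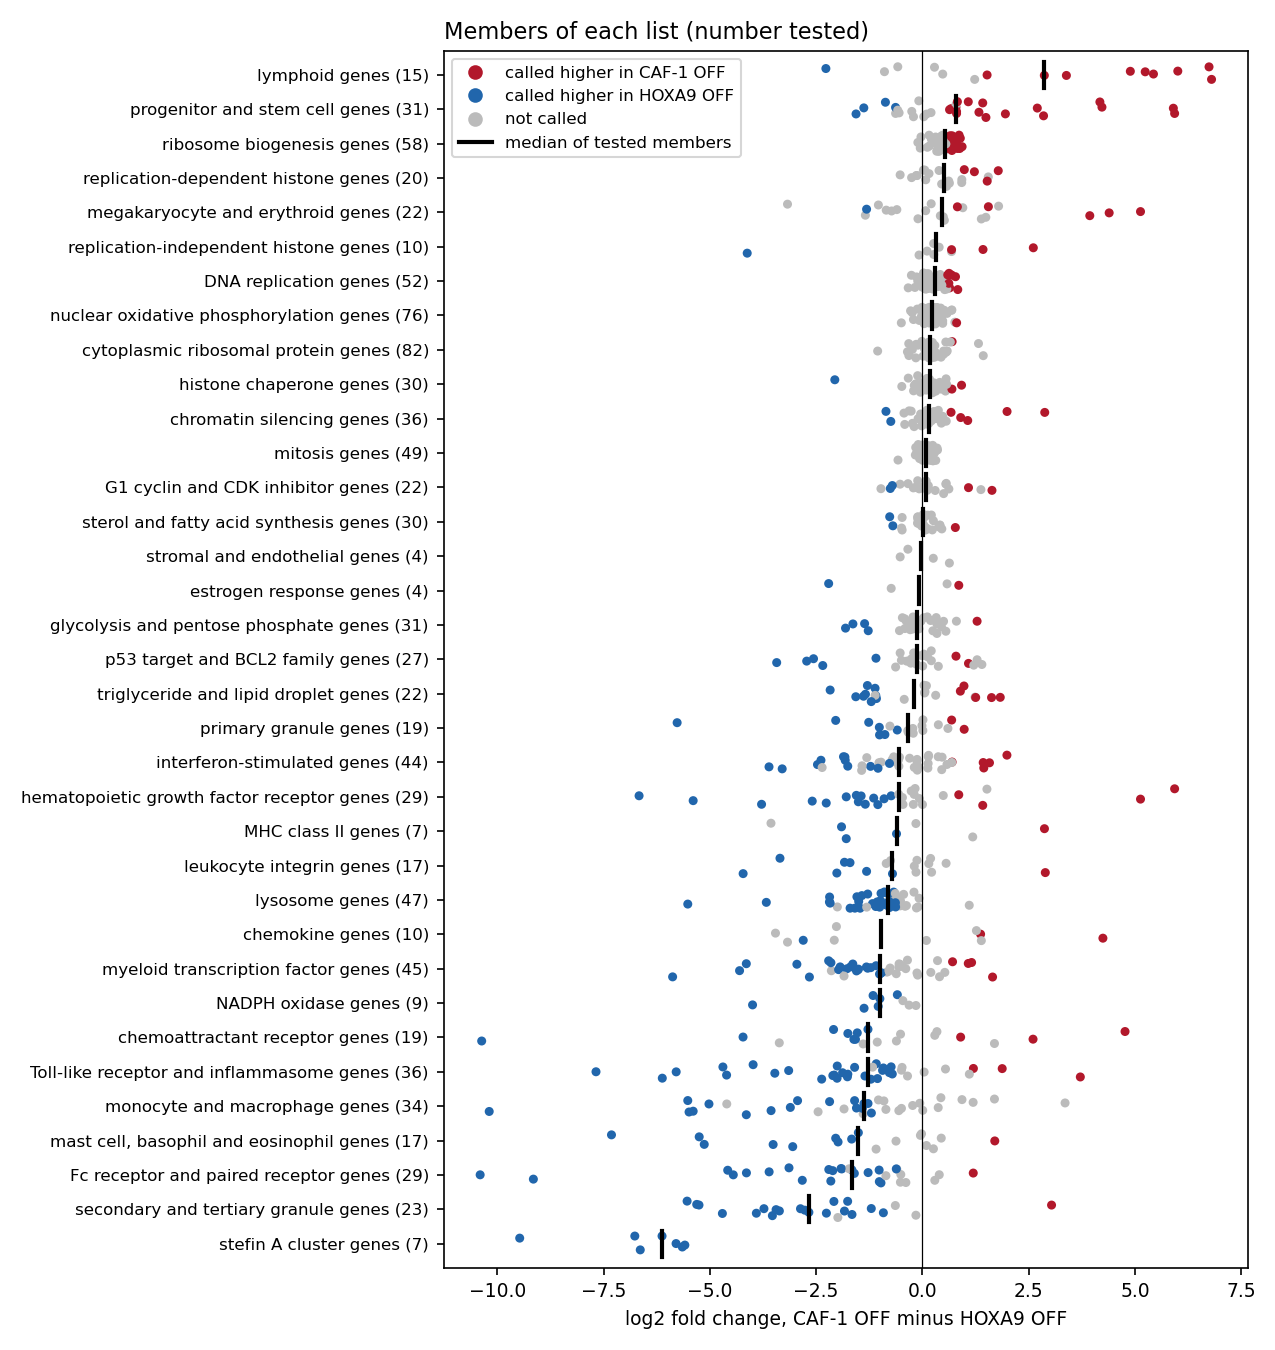
Log2 fold change (CAF-1 OFF minus HOXA9 OFF) of each tested member of 35 gene lists, with the number tested in brackets, one point per gene, red or blue where called and grey where not, and a black bar for the median of the list. Lymphoid, progenitor and ribosome biogenesis genes have medians above 0, and stefin A, granule, Fc receptor and Toll-like receptor genes medians below it.

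Granule genes were read in 2 lists. Of 19 primary granule genes tested, 7 were called higher in HOXA9 OFF (36.8%, against 11.8% of all genes), 2 higher in CAF-1 OFF (10.5% against 9.35%) and 10 did not pass. Mpo, the most abundant of them, read 7897 and 7235 CPM in CAF-1 OFF against 8448 and 6546 CPM in HOXA9 OFF (log2 difference 0.01 ± 0.15, adjusted p = 0.957), and the protease genes Elane and Prtn3 gave adjusted p = 0.391 and 0.207. These 3 were among the 10 that did not pass and do not stand for the list. Fcnb was among the 7 called higher in HOXA9 OFF. The count higher in HOXA9 OFF was 4 without CAF-1 OFF replicate 2, and that higher in CAF-1 OFF was 4 without HOXA9 OFF replicate 1 and 1 without CAF-1 OFF replicate 1. Of 23 secondary and tertiary granule genes tested, 19 were called higher in HOXA9 OFF (82.6%), 1 higher in CAF-1 OFF and 3 did not pass, with a median log2 difference of -2.67. The control lay outside both states for 18 of the 19, against 699 of the 1451 genes called higher in HOXA9 OFF. The difference between the 2 lists was not tested.

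Ltf, which encodes lactoferrin, gave 1.29 and 0.555 CPM in CAF-1 OFF against 31.5 and 16.8 CPM in HOXA9 OFF (26.1-fold, adjusted p = 0.00262). Camp, the cathelicidin gene, was 38.2-fold and Olfm4, a marker of a neutrophil subset, 46.3-fold higher in HOXA9 OFF. Olfm4 had 7 and 84 reads in CAF-1 OFF against 2269 and 1795 in HOXA9 OFF, so the size of its fold is uncertain. Of the calprotectin genes, S100a8 read 17.3 and 16.5 CPM in CAF-1 OFF against 304 and 144 CPM, and S100a9 5.59 and 5.25 CPM against 110.1 and 52.2 CPM. In the control S100a8 was at 2.51 and 2.33 CPM, below both states. Ngp was 10.9-fold and Lcn2 3.15-fold higher in HOXA9 OFF (Lcn2 adjusted p = 0.0565 without CAF-1 OFF replicate 2). Mmp8, the neutrophil collagenase, went the other way, at 331 and 628 CPM in CAF-1 OFF against 56 and 60.8 CPM in HOXA9 OFF, with 69.9 and 40.6 CPM in the control.

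Of 11 stefin A cluster genes listed, 10 were in the files and 7 passed the filter on low counts. All 7 were called higher in HOXA9 OFF (7 of 10 with no filter, 3 tested and called at a mean of at least 5 CPM). Most passed the filter through their HOXA9 OFF reads, so that the count is not independent of the filter. Stfa1 gave 115 and 53 reads in CAF-1 OFF against 6498 and 2043 in HOXA9 OFF. These genes are close copies of one another, and how reads that fit several copies were counted is not given in the sources used here, so values of single members are uncertain. Of 9 NADPH oxidase genes, 6 were called higher in HOXA9 OFF (66.7%, against 11.8% of all genes) and 3 did not pass. Cybb, the catalytic subunit of the oxidase, read 1.81 and 2.82 against 51.3 and 22.7 CPM (15.9-fold), whereas the cytosolic subunit gene Ncf1 was already at 259.9 and 221 CPM in CAF-1 OFF and 2.59-fold higher in HOXA9 OFF.

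The promoters of the called members of 10 lists were searched for a C/EBP half-site pair, TTGCNNAA on either strand, in the 250 bases before each RefSeq start (GRCm38.p6). The motif was present for 6 of the 16 called granule genes with a window (37.5%), for 7 of the 22 called Toll-like receptor and inflammasome genes (31.8%), and for 10.8% of all 27025 genes with a window. It was present for 3 of 13 monocyte and macrophage genes (23.1%) and 2 of 19 myeloid transcription factor genes (10.5%) higher in HOXA9 OFF, and for 2 of 25 ribosome biogenesis genes (8%) higher in CAF-1 OFF. In the other 5 lists fewer than 80% of the called genes had a window, so their shares are void: 35.7% of Fc receptor, 8.33% of lysosome, 0% of growth factor receptor and 0% of interferon-stimulated genes higher in HOXA9 OFF, and 23.1% of progenitor genes higher in CAF-1 OFF. Other motifs searched were the E-box CACGTG (6.86% of all genes), the CLEAR element TCACGTGA that contains it (0.907%), the PU.1 site GAGGAAGT (2.79%), the EBF site CCCNNGGG (13.4%) and the interferon-stimulated response element (3.46%). These reference shares include genes that were not tested. Among tested genes not called they were 10.1%, 1.92%, 2.79%, 17.4% and 3.11% in that order, and 8.64% for the C/EBP motif. Only 76.2% of those genes had a window, so their shares are void too. The PU.1 letters were found for 3 granule genes (18.8%), 4 sensor genes (18.2%), 2 ribosome biogenesis genes (8%) and 0 of the monocyte and transcription factor genes. In the granule, sensor, monocyte, transcription factor and ribosome biogenesis lists, in that order, the E-box was present for 6.25%, 9.09%, 7.69%, 26.3% and 4%, the EBF site for 18.8%, 9.09%, 0%, 26.3% and 0%, and the interferon-stimulated response element for 0%, 9.09%, 7.69%, 5.26% and 0%. The CLEAR element was present in none of these 5 lists. For all calls together, a window was matched for 78.3% of the genes higher in CAF-1 OFF and 79.7% of those higher in HOXA9 OFF, under the 80% needed, so shares over all calls are void. A match is a description of the letters and not a binding site. The windows below are those of the 2 genes of the granule list and of the sensor list that held the motif, averaged at least 5 CPM and differed most, with the matched letters in capitals, at chr9:111019042-111019291 (plus strand), chr3:90695722-90695971 (minus), chr7:3249741-3249990 (minus) and chr11:71144705-71144954 (minus).
Ltf: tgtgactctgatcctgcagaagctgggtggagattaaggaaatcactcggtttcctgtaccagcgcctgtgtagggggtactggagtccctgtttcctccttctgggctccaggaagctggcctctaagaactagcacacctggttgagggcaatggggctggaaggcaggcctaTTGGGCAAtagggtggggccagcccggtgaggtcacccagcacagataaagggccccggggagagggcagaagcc
S100a9: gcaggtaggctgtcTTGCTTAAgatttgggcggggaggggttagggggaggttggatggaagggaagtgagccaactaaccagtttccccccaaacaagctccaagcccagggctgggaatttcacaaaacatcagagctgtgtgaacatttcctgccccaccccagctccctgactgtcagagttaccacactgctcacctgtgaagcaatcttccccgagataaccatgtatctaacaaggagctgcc
Nlrp12: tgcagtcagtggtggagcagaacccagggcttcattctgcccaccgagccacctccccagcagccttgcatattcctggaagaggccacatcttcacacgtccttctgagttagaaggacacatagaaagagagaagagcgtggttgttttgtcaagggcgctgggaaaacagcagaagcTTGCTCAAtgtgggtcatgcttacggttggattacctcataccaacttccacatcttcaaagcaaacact
Nlrp1a: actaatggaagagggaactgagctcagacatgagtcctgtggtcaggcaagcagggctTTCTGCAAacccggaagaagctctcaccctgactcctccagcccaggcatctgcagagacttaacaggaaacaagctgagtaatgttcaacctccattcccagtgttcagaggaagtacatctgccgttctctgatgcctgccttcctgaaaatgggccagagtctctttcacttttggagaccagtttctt

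Nlrp12 and Nlrp1a, both intracellular sensors of the NLR family, were 4.31-fold and 4.22-fold higher in HOXA9 OFF, at 3.26 and 4.03 against 18.9 and 12.5 CPM and 3.21 and 8.47 against 26.3 and 23 CPM. Their list was among those with the highest share of calls: of 36 Toll-like receptor and inflammasome genes tested, 26 were called higher in HOXA9 OFF (72.2%, against 11.8% of all genes), 3 higher in CAF-1 OFF (8.33% against 9.35%, 1 without CAF-1 OFF replicate 1) and 7 did not pass. Tlr9, a sensor of unmethylated DNA, read 0.259 and 0.504 CPM in CAF-1 OFF against 8.87 and 11.2 CPM in HOXA9 OFF. Tlr7 and Tlr8, sensors of single-stranded RNA, differed likewise. Tlr7 had 3 and 0 reads in CAF-1 OFF against 82 and 129, and Tlr8 0 and 1 against 114 and 129. The inflammasome gene Nlrp3 was 8.85-fold, the surface receptor gene Tlr2 5.16-fold and the flagellin sensor gene Naip2 3.37-fold higher in HOXA9 OFF. Nlrp10 opposed them, at 39.5 and 25.1 CPM in CAF-1 OFF against 1.05 and 3.98 CPM in HOXA9 OFF, with 0.587 and 0.466 CPM in the control.

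Of 34 monocyte and macrophage genes tested, 16 were called higher in HOXA9 OFF (47.1%, against 11.8% of all genes) and 18 did not pass (median log2 difference -1.38). The count higher in HOXA9 OFF was 25 with no filter and 24 without HOXA9 OFF replicate 1. None was called higher in CAF-1 OFF in the fit reported, but 1, 3 and 4 were without CAF-1 OFF replicate 1, HOXA9 OFF replicate 1 and HOXA9 OFF replicate 2, and 1 or 2 with scaling by library size, no filter, all 6 libraries or the exact test of edgeR. Ctss, the gene for cathepsin S, read 1.24 and 1.21 CPM in CAF-1 OFF against 43.1 and 70 CPM in HOXA9 OFF (45.8-fold). Ms4a6c was 8.61-fold and Cd68 4.54-fold higher, whereas Ms4a7 rested on one library, with 63 and 488 reads in HOXA9 OFF, and gave adjusted p = 0.135 and 0.098 without CAF-1 OFF replicates 1 and 2. The monocyte genes F13a1 and Ly6c2 did not pass (adjusted p = 0.262 and 0.374), and Ccr2, a chemokine receptor of inflammatory monocytes, read 515 and 371 CPM in CAF-1 OFF against 66.4 and 208 CPM in HOXA9 OFF (adjusted p = 0.0528).

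Fc receptors and paired immune receptors followed the same side, with 20 of 29 higher in HOXA9 OFF (69%, against 11.8% of all genes), 1 higher in CAF-1 OFF and 8 not passing. Without either CAF-1 OFF library, or at a mean of at least 5 CPM, 13 were called higher in HOXA9 OFF. Clec4a2, an inhibitory lectin gene, read 6 and 6.15 CPM in CAF-1 OFF against 127 and 87.4 CPM in HOXA9 OFF (17.6-fold), and Lilrb3, an inhibitory immunoglobulin-like receptor gene, was 21.8-fold higher. Sirpa, which encodes the receptor for CD47, was the most abundant called member at 139 and 157 against 498 and 437 CPM. Clec4d alone was higher in CAF-1 OFF (2.29-fold, adjusted p = 0.0903 without CAF-1 OFF replicate 1).

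Integrin and chemoattractant receptor genes held members of both sides. Of 17 leukocyte integrin genes, 7 were called higher in HOXA9 OFF (41.2%, against 11.8% of all genes), 1 higher in CAF-1 OFF (5.88% against 9.35%) and 9 did not pass. Itgam, the gene for CD11b, read 18.9 and 29.7 CPM in CAF-1 OFF against 508 and 396 CPM in HOXA9 OFF, with 25 and 15.6 CPM in the control (18.6-fold between the states, adjusted p = 0.000771). Its partner Itgb2 was 3.25-fold higher, while Itga9 was 7.42-fold higher in CAF-1 OFF. Of 19 chemoattractant receptor genes, 8 were called higher in HOXA9 OFF (42.1%, 4 and 5 without CAF-1 OFF replicates 1 and 2) and 3 higher in CAF-1 OFF (15.8%, 1 without either CAF-1 OFF library or with the replicate block). Ccr1 was 18.6-fold higher in HOXA9 OFF. Cmklr1, the chemerin receptor gene, was higher in CAF-1 OFF, with 81 and 37 reads there against 3 and 1. Among 10 chemokine genes tested, 2 were called higher in CAF-1 OFF (20%) and 1 higher in HOXA9 OFF (10%), with Cxcl3 at 5.02 and 5.45 against 0.143 and 0.416 CPM, Ccl9 at 1083 and 956 against 331 and 458 CPM, and Ccl6 6.98-fold higher in HOXA9 OFF. Without HOXA9 OFF replicate 1, 12 were tested and 7 called higher in HOXA9 OFF. That count was also 7 with no filter, 3 by the DESeq2 Wald test or the exact test and 2 with the replicate block.

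Mast cell, basophil and eosinophil genes were read as 1 list. Of 17 members tested, 9 were called higher in HOXA9 OFF (52.9%, against 11.8% of all genes), 1 higher in CAF-1 OFF (5.88% against 9.35%, 2 without CAF-1 OFF replicate 2) and 7 did not pass. Epx, eosinophil peroxidase, read 4.09 and 6.35 CPM in CAF-1 OFF against 232 and 135 CPM in HOXA9 OFF (35-fold, adjusted p = 0.00103). The eosinophil ribonuclease gene Ear2 read 0.207 and 0.555 against 20.7 and 8.8 CPM, Il5ra was 8.28-fold higher, and Prg2, the major basic protein gene, stood at 1140.0 and 975 CPM already in CAF-1 OFF against 4870.2 and 3492 CPM in HOXA9 OFF. The basophil protease gene Mcpt8 was higher in CAF-1 OFF (107 and 43.9 against 24.7 and 21.5 CPM), and no read of the mast cell genes Mcpt4 and Tpsab1 was found. Summed over the list, these genes made up 2353 and 1762 CPM in CAF-1 OFF against 7272 and 5409 CPM in HOXA9 OFF.

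Of 22 megakaryocyte and erythroid genes tested, 5 were called higher in CAF-1 OFF (22.7%, against 9.35% of all genes), 1 higher in HOXA9 OFF (4.55% against 11.8%) and 16 did not pass. The 5 were 3 without CAF-1 OFF replicate 1 or at a mean of at least 5 CPM and 9 by the exact test. The 1 was 4 without CAF-1 OFF replicate 1, HOXA9 OFF replicate 1 or HOXA9 OFF replicate 2, 5 by the DESeq2 Wald test, 3 with the replicate block or the exact test, 2 with all 6 libraries and 7 with no filter. Car2, a carbonic anhydrase gene, was the largest abundant difference at 98.3 and 71.2 against 5.58 and 5.47 CPM, and Zfpm1, the cofactor of GATA1, was 2.93-fold higher in CAF-1 OFF. Gata1 itself read 6.62 and 3.33 CPM in CAF-1 OFF against 15.3 and 9.87 CPM in HOXA9 OFF (adjusted p = 0.0523), and of the globin genes Hbb-b2 was called on 15 and 12 reads in CAF-1 OFF against 0 and 1 in HOXA9 OFF, with adjusted p = 0.0714 without CAF-1 OFF replicate 2, 0.129 without HOXA9 OFF replicate 1 and 0.0542 under the replicate block. The stromal and endothelial list gave 4 tested genes, of which edgeR called 0 (1 with no filter or without HOXA9 OFF replicate 1), the DESeq2 Wald test called 0, and 1 had an unadjusted p under 0.05. Pecam1 made up most of its sum, while Epcam, Kdr and Lum had no read.

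Lysosomal genes were called higher in HOXA9 OFF in 32 of 47 cases (68.1%, against 11.8% of all genes) and 15 did not pass (median log2 difference -0.81). Psap, the precursor of saposins, read 523 and 532 CPM in CAF-1 OFF against 1809 and 2995 CPM in HOXA9 OFF. Lipa, the lysosomal acid lipase gene, was 4.5-fold higher, and the protease genes Ctsa, Ctsb, Ctsd and Ctsz were 1.83-fold, 3.01-fold, 2.14-fold and 1.74-fold higher. The calls of Ctsd and Ctsz were marginal: without CAF-1 OFF replicate 1, CAF-1 OFF replicate 2 and HOXA9 OFF replicate 2 the adjusted p was 0.121, 0.167 and 0.0711 for Ctsd and 0.122, 0.137 and 0.158 for Ctsz, and under the replicate block 0.0895 and 0.0679. The control lay nearer to CAF-1 OFF for 31 of the 32 (96.9%, near the 94.3% of all genes called higher in HOXA9 OFF). In total the list took 7396 and 6811 CPM in CAF-1 OFF against 13400.0 and 17040.0 CPM in HOXA9 OFF.

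Histone genes were read in 2 lists. Of 10 replication-independent histone genes tested, 3 were called higher in CAF-1 OFF (30%, against 9.35% of all genes), 1 higher in HOXA9 OFF (10% against 11.8%, 0 at a mean of at least 5 CPM) and 6 did not pass. Besides H3f3b, H1fx, which encodes the linker histone H1X, read 139.6 and 124 CPM in CAF-1 OFF against 25.4 and 17.7 CPM in HOXA9 OFF, with 40.3 and 39.4 CPM in the control (6.1-fold between the states). H2afy, the gene for macroH2A1, was 1.61-fold higher in CAF-1 OFF (under 1.5-fold without CAF-1 OFF replicate 1), whereas the paralog H2afy2 was 17.4-fold higher in HOXA9 OFF at no more than 3.87 CPM. Of 20 replication-dependent histone genes tested, 16 did not pass and 4 were called higher in CAF-1 OFF (20%, 2 without CAF-1 OFF replicate 1 or at a mean of at least 5 CPM), among them Hist1h4i at 2.88-fold and Hist2h2be at 1.98-fold. For all 4 the control lay nearer to HOXA9 OFF, against 171 of the 1145 genes called higher in CAF-1 OFF. These transcripts mostly lack a poly(A) tail, and how messenger RNA was selected is not given in the sources used here. Of 30 histone chaperone genes, Chaf1b was the member called lower in CAF-1 OFF, Npm1 and Nap1l1 were 1.62-fold and 1.89-fold higher, and 27 did not pass (10% called in either direction, against 21.2% of all genes). Without CAF-1 OFF replicate 2, 5 were called higher and 2 lower in CAF-1 OFF, and with scaling by library size alone 5 were called higher.

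Of the cell division lists, 0% of mitosis, 13.5% of DNA replication and 18.2% of G1 genes were called in either direction, against 21.2% of all genes. Of 49 mitosis genes, edgeR called 0 (1, higher in HOXA9 OFF, with no filter or without CAF-1 OFF replicate 2), the DESeq2 Wald test called 0, and 1 had an unadjusted p under 0.05. Their median log2 difference was 0.09, with Top2a at 811 and 1099 against 870.2 and 813 CPM. Of 52 DNA replication genes, 7 were called higher in CAF-1 OFF (13.5%, against 9.35% of all genes) and 45 did not pass, and without HOXA9 OFF replicate 2 only 3 were called. Dut, which keeps uracil out of DNA, was 1.78-fold (adjusted p = 0.068 without CAF-1 OFF replicate 1) and Rrm2, a ribonucleotide reductase subunit, 1.61-fold higher. Of 22 G1 cyclin and CDK inhibitor genes, 2 were called in each direction (9.09%). Without CAF-1 OFF replicate 2, with no filter or with scaling by library size alone 4 were higher in CAF-1 OFF, and without CAF-1 OFF replicate 1 only 1 was higher in HOXA9 OFF. Ccnd2, cyclin D2, read 352 and 395 CPM in CAF-1 OFF against 123 and 118 CPM in HOXA9 OFF (3.11-fold, adjusted p = 0.00117), Cdkn1a, the gene for the inhibitor p21, was 2.12-fold higher in CAF-1 OFF (adjusted p = 0.0635 without CAF-1 OFF replicate 1), and E2f2 and Rbl2 were 1.69-fold and 1.63-fold higher in HOXA9 OFF. Rbl2 was under 1.5-fold without CAF-1 OFF replicate 1.

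Ribosome biogenesis genes were called higher in CAF-1 OFF in 26 of 58 cases (44.8%, against 9.35% of all genes) and 32 did not pass. Differences were small and regular, with a median log2 difference of 0.53, and 15 were called without HOXA9 OFF replicate 1. Ncl, nucleolin, stood at 2739 and 2844 CPM in CAF-1 OFF against 1589 and 1482 CPM in HOXA9 OFF (1.82-fold), Npm1, nucleophosmin, at 1062 and 946 against 628 and 614 CPM, and Tcof1, which assists ribosomal RNA transcription, was 1.91-fold higher. The control was nearer to CAF-1 OFF for all 26, against 85.1% of all genes called higher in CAF-1 OFF. Ribosomal protein and nuclear oxidative phosphorylation genes were called less often than other genes, at 1.22% and 1.32% against 21.2% of all genes. Of 82 ribosomal protein genes tested, 1 was called (Rpl12, higher in CAF-1 OFF, adjusted p = 0.0743 without CAF-1 OFF replicate 1 and 0.108 without HOXA9 OFF replicate 1) and 81 did not pass. Without CAF-1 OFF replicate 2, 3 were called. Of 76 nuclear oxidative phosphorylation genes, 1 was called higher in CAF-1 OFF (Ndufa4, adjusted p = 0.0694 without CAF-1 OFF replicate 1), against 7 without CAF-1 OFF replicate 2 and 3 with scaling by library size alone.

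Metabolic genes were called in both directions. Of 31 glycolysis and pentose phosphate genes, 4 were called higher in HOXA9 OFF and 1 higher in CAF-1 OFF (3 and 2 without CAF-1 OFF replicate 2 and HOXA9 OFF replicate 2), together 16.1% against 21.2% of all genes. The first 2 NADPH-forming enzymes of the pentose phosphate pathway were among the 4. G6pdx read 122 and 136 CPM in CAF-1 OFF against 409 and 393 CPM in HOXA9 OFF, and Pgd read 1050.5 and 1050.1 against 2570.3 and 2509.5 CPM, with tight agreement between libraries. Slc16a1, a lactate transporter gene, was 2.44-fold higher in CAF-1 OFF. Of 22 triglyceride and lipid droplet genes, 9 were called higher in HOXA9 OFF and 5 higher in CAF-1 OFF, together 63.6%, with Soat1, a cholesterol-esterifying enzyme, 2.3-fold higher in HOXA9 OFF and Dgat2, an enzyme of the last step of triglyceride synthesis, at 199.5 and 231 CPM in CAF-1 OFF against 84.8 and 54.5 CPM. Dgat2 was at 32.3 and 30.4 CPM in the control. Of 30 sterol and fatty acid synthesis genes, 1 was called higher in CAF-1 OFF, 2 higher in HOXA9 OFF (together 10%) and 27 did not pass. Leaving out 1 library gave 0 to 2 higher in CAF-1 OFF and 0 to 3 higher in HOXA9 OFF: CAF-1 OFF calls were 0 without CAF-1 OFF replicate 1, CAF-1 OFF replicate 2 or HOXA9 OFF replicate 1, and HOXA9 OFF calls were 0 without HOXA9 OFF replicate 2.

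Of 44 interferon-stimulated genes tested, 5 were called higher in CAF-1 OFF (11.4%, near the 9.35% of all genes), 11 higher in HOXA9 OFF (25% against 11.8%) and 28 did not pass. The 5 were 3 without CAF-1 OFF replicate 1. The 11 fell to 4 or 5 when CAF-1 OFF replicate 1, CAF-1 OFF replicate 2 or HOXA9 OFF replicate 2 was left out, were 7 with the replicate number as a block, 5 at a mean of at least 5 CPM and 17 with no filter. Parp14, an ADP-ribosyltransferase gene, read 2.38 and 2.42 CPM in CAF-1 OFF against 6.92 and 10.5 CPM in HOXA9 OFF (adjusted p = 0.0107, and 0.0504 without CAF-1 OFF replicate 1). Ifitm3, a membrane protein that restricts viral entry, read 175 and 116 CPM in CAF-1 OFF against 43.5 and 54.1 CPM in HOXA9 OFF, and the RNA sensor gene Ifih1 was 2.72-fold higher in CAF-1 OFF. Among 27 p53 target and BCL2 family genes, 5 were called higher in HOXA9 OFF (18.5% against 11.8%, 3 at a mean of at least 5 CPM) and 2 higher in CAF-1 OFF (7.41% against 9.35%, 0 without CAF-1 OFF replicate 1, 4 without HOXA9 OFF replicate 2). Bmf, a pro-apoptotic BH3-only gene, read 1.71 and 2.07 CPM in CAF-1 OFF against 22.4 and 18.3 CPM in HOXA9 OFF. Of 36 chromatin silencing genes, 19.4% were called in either direction, near the 21.2% of all genes. Of these, 5 were called higher in CAF-1 OFF, led by the DNA demethylase gene Tet1 (7.35-fold) and the Polycomb gene Cbx2 (3.97-fold), and 2 higher in HOXA9 OFF, including Tet2 (1.81-fold, adjusted p = 0.0707 without CAF-1 OFF replicate 1). The 2 were 0 without CAF-1 OFF replicate 1 or with scaling by library size alone, and 1 without HOXA9 OFF replicate 2 or with all 6 libraries. Of 7 MHC class II genes, 3 were called higher in HOXA9 OFF (42.9%, 1 without CAF-1 OFF replicate 2 or at a mean of at least 5 CPM) and 1 higher in CAF-1 OFF (14.3%, 0 without CAF-1 OFF replicate 1, HOXA9 OFF replicate 1 or HOXA9 OFF replicate 2). Beside the MHC class II shares and those of the next list, 9.35% of all genes were called higher in CAF-1 OFF and 11.8% higher in HOXA9 OFF. Of 4 estrogen response genes tested, the HSP90 co-chaperone gene Fkbp4 was 1.81-fold higher in CAF-1 OFF, where estradiol was present, and Rara higher in HOXA9 OFF (25% in each direction). The count higher in HOXA9 OFF was 2 without CAF-1 OFF replicate 2, HOXA9 OFF replicate 1 or HOXA9 OFF replicate 2.

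Some genes were read in 1 state and nearly silent in the other. With at most 3 reads in both libraries of one state and at least 30 in both of the other, 24 called genes belonged to CAF-1 OFF and 16 to HOXA9 OFF. The CAF-1 OFF side was led by 8430408G22Rik and Tub, then Accn4, an acid-sensing channel gene (pooled ratio 144, 95% exact interval 48.9 to 700.1), Inhbb, an activin subunit gene (ratio 107, 36.2 to 521), Gcnt4, a glycosyltransferase gene, and Igf2r, the receptor for IGF2. Inhbb had 176 and 156 reads in CAF-1 OFF against 2 and 1 in HOXA9 OFF, with 452 and 202 in the control. Igf2r had 71 and 182 in CAF-1 OFF against 0 and 3 in HOXA9 OFF, with 41 and 299 in the control. Of this side, Tub alone was at no more than 1 read in both control libraries.

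The HOXA9 OFF side was led by Rin2, a RAB5 effector gene, with 0 and 2 reads in CAF-1 OFF against 227 and 331 in HOXA9 OFF (pooled ratio 289, 95% exact interval 79.6 to 2393). Klrk1, which encodes the receptor NKG2D, had 3 and 1 against 239 and 158, and the lectin gene Clec4a1 0 and 2 against 115 and 246. Lilrb4, C3ar1 and Trem2, genes for receptors of macrophages and dendritic cells, had no read in either CAF-1 OFF library. In HOXA9 OFF Lilrb4 gave 78 and 234 reads, C3ar1 31 and 265 and Trem2 44 and 221, more in replicate 2 for all 3, and they stood at least 57.5-fold, 56.2-fold and 49.7-fold higher than a floor of 3 counts per CAF-1 OFF library. C3ar1 gave adjusted p = 0.0973 and 0.0765 without CAF-1 OFF replicates 1 and 2, and Trem2 0.0677 and 0.0506.

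**Figure D4:**
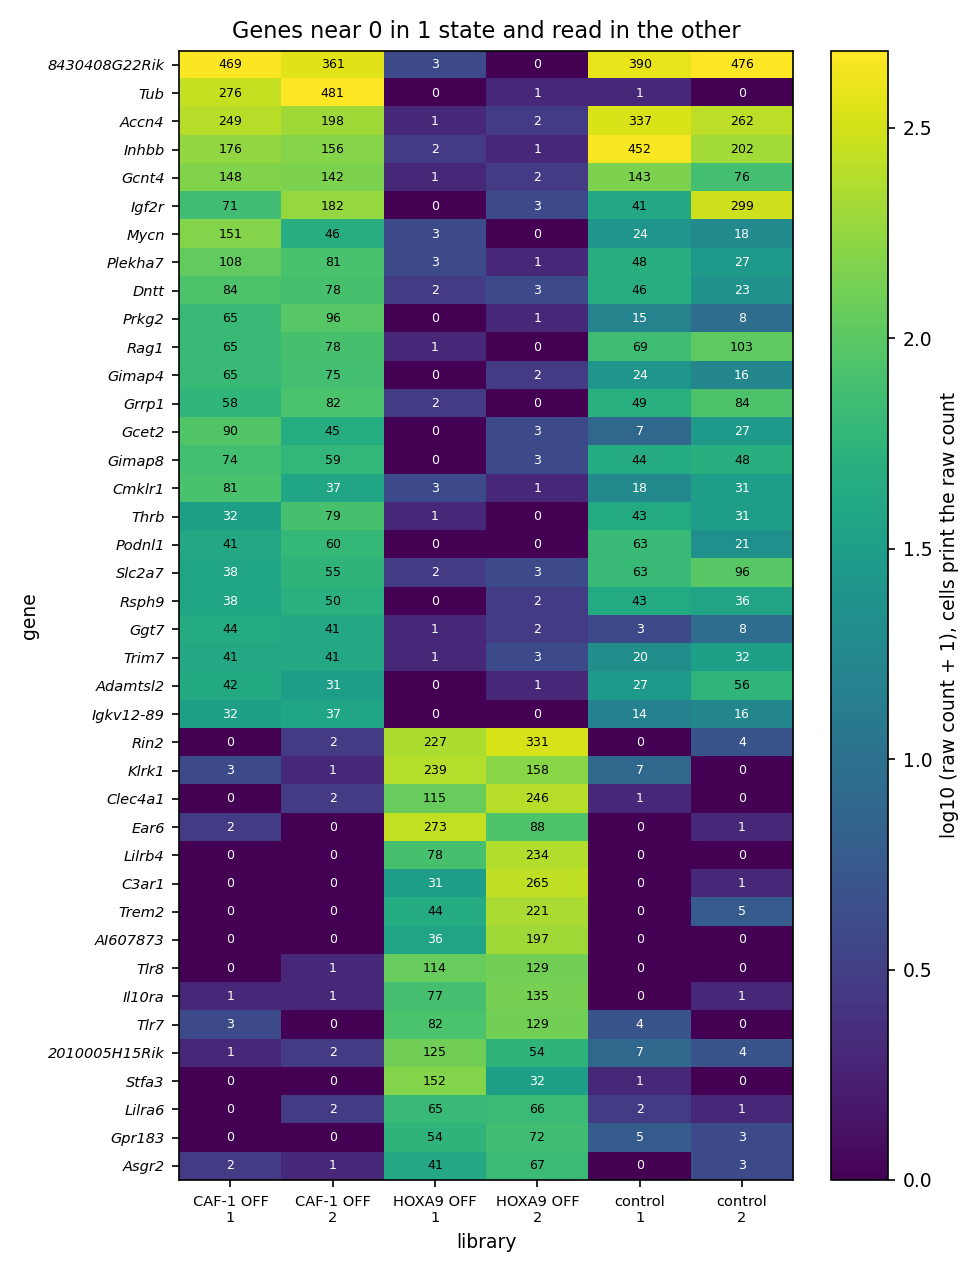
Raw read counts of the 24 genes read in CAF-1 OFF and nearly silent in HOXA9 OFF and the 16 with the reverse pattern, 1 column per library including the control, with colour for log10 of the count plus 1 and the count printed in each cell. Most of the first 24 are also read in the control, where Tub has 1 and 0 reads, and the last 16 have at most 7 reads in the control.

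Called genes also lay side by side on the chromosomes. On the mm9 build, with 1 position for 12062 of the 12251 genes tested, 18 runs of at least 4 neighbouring tested genes were all called in 1 direction, 4 of them higher in CAF-1 OFF and 14 higher in HOXA9 OFF, with 88 genes in all. With 21.2% of all genes called, some runs arise from the density of calls alone. Their number was not computed, so no clustering is claimed. The longest towards CAF-1 OFF spanned chr6:48543882-48791373 from Repin1 to Tmem176b and took in 6 GIMAP genes, which encode GTPases of immune cells. In it Gimap6 read 40.6 and 28.2 CPM in CAF-1 OFF against 2.15 and 3.39 CPM in HOXA9 OFF, Gimap1 40.4 and 24.7 against 3.53 and 3.21 CPM, and Gimap4 had 65 and 75 against 0 and 2 reads. A run of 4 on chr15:60650551-62209651 held Myc and Pvt1, and a run of 6 on chr1:88051355-88427273 held Ncl and Ptma.

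The longest run towards HOXA9 OFF, also of 9 genes, spanned chr16:36156897-36785048 and held the stefin A genes with Cd86, which encodes a costimulatory ligand. Runs of 5 covered the Cd300 receptors at chr11:114751355-114863194, the Clec4 lectins at chr6:122871866-123197039, the Ms4a genes at chr19:11395529-11605746 and Chi3l3 with its neighbours at chr3:105950472-106377763. Runs of 4 included Lilrb3, Pira2, Lilra6 and Lair1, and the interferon-inducible Pyhin1 and Ifi204. Many of these neighbours are members of one family that can share reads, so they are not independent genes.

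The 2 HOXA9 OFF libraries differed from each other within several lists. Of the 19 called secondary and tertiary granule genes, 18 read higher in replicate 1 than in replicate 2, with a median log2 ratio of 0.56, while over all genes tested the median ratio was 0.01. Replicate 1 was also the higher for 6 of 7 stefin A genes (median 1.03), 8 of 9 mast cell, basophil and eosinophil genes (0.43), 6 of 6 NADPH oxidase genes (0.27) and 6 of 7 primary granule genes (0.29). Replicate 2 was the higher for 25 of 32 lysosome genes (-0.23), 9 of 11 interferon-stimulated genes (-0.57) and 4 of 5 p53 target and BCL2 family genes (-0.40). Between the CAF-1 OFF libraries, 5 of 5 called megakaryocyte and erythroid genes (0.21) and 4 of 5 interferon-stimulated genes (0.59) read higher in replicate 1, against a median of 0 over all genes. Chi3l3 gave 2803 and 1539.6 CPM, and Psap 1809 and 2995 CPM, in replicates 1 and 2 of HOXA9 OFF. In both replicates Chi3l3 and Psap were above both CAF-1 OFF libraries, and the labels give no batch or date for the libraries.

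**Figure D5:**
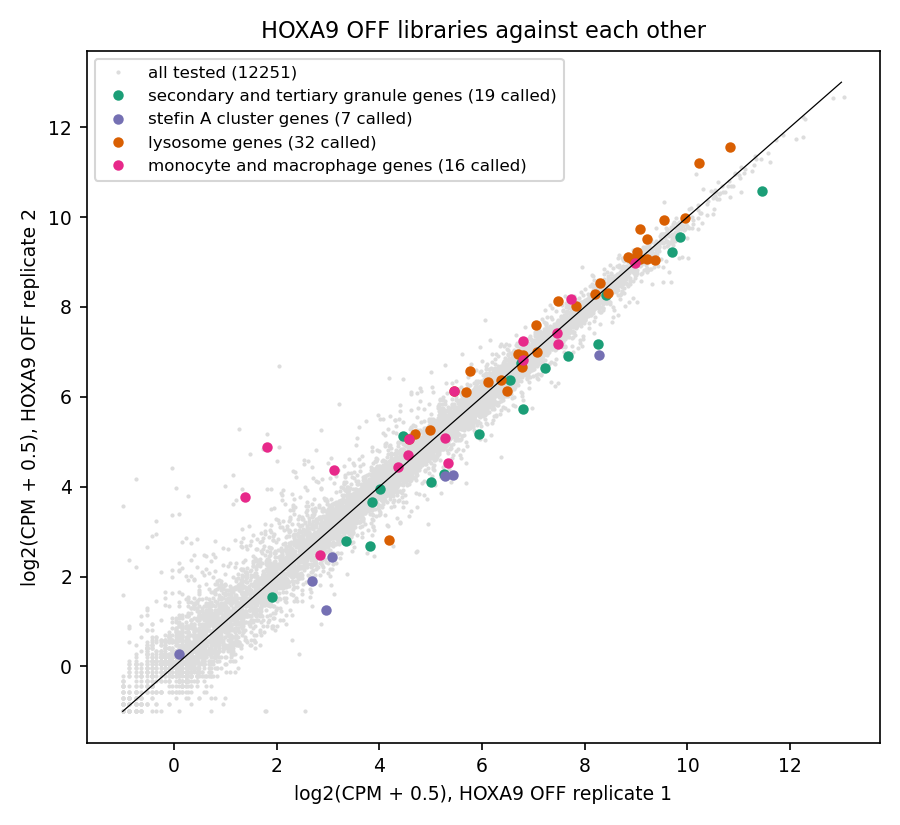
Log2(CPM + 0.5) in HOXA9 OFF replicate 2 against replicate 1, with all 12251 genes tested in grey, the diagonal in black and the genes called higher in HOXA9 OFF of 4 lists in colour. Secondary granule and stefin A genes lie mostly below the diagonal and lysosome genes mostly above it.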

How the data were processed

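RNA was sequenced from 6 samples of iGMPs (directional libraries, Illumina HiSeq). Per the study's methods, reads were aligned with STAR to mm9 and assigned to genes with HTSeq-count; annotation, overlap mode and strand setting are not given in the sources used here. The deposited values are raw counts per gene symbol, which the authors did not normalize. The 5 tally lines were dropped from library sizes (reads in no gene numbered 5.95 to 8.26 per 100 gene reads over the 6 libraries). From the counts, edgeR 4.0.16 (R 4.3.3) was run on the 4 libraries, with filterByExpr, TMM scaling and the quasi-likelihood test, CAF-1 OFF minus HOXA9 OFF, calling genes at 1.5-fold and a Benjamini-Hochberg FDR under 0.05, the cutoffs of the study. Depth was 16944121 to 21733706 gene-assigned reads, so 1 library's floor of 3 counts was 0.138 to 0.177 CPM. With 2 libraries per state an exact permutation test could not reach 0.05, and none was used.

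Genes named are the 4 marker and 3 targeted genes, the 12 largest differences per direction at a mean of 10 CPM or more, leading members of each list, the leading switch genes and members of runs. Cebpa, Cebpb, Cebpe, Cebpg, Maff, Il10rb, the Csf2 and Csf3 receptor genes, Ctsa, Ctsb, Ctsd, Ctsz, Dntt, Rag1, Pax5, Cd93, Fli1, Runx1, Elane, Prtn3, Gata1, Hbb-b2, Irf8, Ly6c2, Sfpi1, Myb, Lcn2, Ngp, S100a8, S100a9, Nlrp12, Nlrp1a, Tlr7, Tlr8, Trem2 and the genes named as having no read fall outside that rule and were named after their values were seen. The members and lists were chosen with earlier results of these data known, so list counts are given beside the share over all genes, without a test. On simulated counts for 12251 genes, 200 were changed in each simulation. There 18.3% of 1.5-fold, 56.6% of 2-fold and 89.9% of 4-fold changes were recovered, and 13.4% of calls were false. In the data 2596 genes were called. Both rates depend on the share of changed genes, so they are not rates for the calls reported. Alternatives tried were DESeq2 1.42.0 size factors and Wald test, scaling by library size, other filters and cutoffs, all 6 libraries, the exact test of edgeR, the replicate number as a block, and leaving out each library. Replicate numbers are shared by the groups but no source pairs them. Promoters came from RefSeq windows of GRCm38.p6 (947 genes matched by an older symbol), and gene positions from GENCODE M1 on mm9. Some list members are not reported here by name.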

Additional observations from a re-analysis of the deposited data

Results flagged for a closer look

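Reads assigned to no annotated gene, which entered no comparison, averaged 8.05 per 100 gene-assigned reads over the HOXA9 OFF libraries (7.84 and 8.26), above 6.87 and 7.15 in the control and 5.95 and 7.30 in CAF-1 OFF. Groups of 2 libraries are too small for a search for outlying libraries.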

How the results depend on the processing

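The number of calls stayed between 2184 and 3227 under the other scalings, filters, fits and tests. It was 835 (313 higher in CAF-1 OFF, 522 higher in HOXA9 OFF) at 2-fold and FDR 0.01 and 3159 with no fold minimum. Of the 2596 calls, 2448 were also made by the DESeq2 Wald test, which called 2674, and none of the 2596 changed direction under any alternative in which it was tested. The share of calls higher in CAF-1 OFF was 51.8% with scaling by library size alone, 42.1% at a mean CPM of at least 5, 42.0% by the DESeq2 Wald test, 37.5% at 2-fold and FDR 0.01 and 46.9% with no fold minimum. Leaving out 1 library in turn gave 1832 to 2590 calls, 739 to 1087 of them higher in CAF-1 OFF and 1093 to 1503 higher in HOXA9 OFF, and a share of 37.5% to 43.8%. The lowest call count, 1832, came without CAF-1 OFF replicate 1, which left 739 higher in CAF-1 OFF. An arm of 1 library was assumed to vary like the other group. With the replicate block the calls were 2340. Across genes, deviations of the replicate 1 libraries from the mean of their state correlated at 0.0226 between the states. With 2 libraries per state the replicate 2 deviations mirror these and add nothing. No source pairs the numbers, so they were not taken as pairs. Among lists with at least 4 calls in a direction, the fit with the replicate block moved 1 count by over 1.5 times, that of interferon-stimulated genes.

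Switch genes numbered 87 and 46 at a minimum of 10 reads, and 5 and 4 at 100, for CAF-1 OFF and HOXA9 OFF, and runs of at least 3 neighbours numbered 59. Of the list medians, 8 changed sign under at least 1 alternative. Over the fits that leave out 1 library they ranged from -0.181 to 0.612 for megakaryocyte and erythroid, from -0.575 to 0.31 for stromal, from -2.76 to 1.13 for chemokine, from -1.59e-05 to 0.337 for ribosomal protein, from -0.115 to 0.128 for sterol and fatty acid synthesis and from -0.215 to 0.0498 for p53 target and BCL2 family genes. With no filter the MHC class II median was 0.369 and the lipid droplet median 0.026, and under library size alone the stromal median was 0.0191. Of 280 genes, 245 named by rule and the others added after their values were seen, 196 kept their direction and call under every alternative and 11 changed direction under at least 1, none of which was called. Leaving out 1 library moved the log2 difference from -0.173 to 0.0249 for Chaf1a, from -0.0409 to 0.284 for Rps3, from -0.516 to 0.243 for Mcm6, from -0.162 to 0.0559 for Anp32e, from -0.42 to 0.121 for Psmb8, from -0.291 to 0.0801 for Plek, from -0.577 to 0.168 for H2-DMa, from -0.0527 to 0.371 for Top2a, from -0.277 to 0.549 for Cebpa, from -0.163 to 0.189 for Mpo and from -0.032 to 0.168 for Hist1h1c. Anp32e was 0.0156 under library size alone and Mpo -0.00254 with all 6 libraries. The causes were not tested. Depth limited the genes of few reads, whose intervals cover counting error only.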
